A study of Homo sapiens with 12 samples.

Results

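The 42 genes described here encode the transporters and enzymes that take glucose through glycolysis, the pentose phosphate pathway and the TCA cycle. They were chosen by symbol from the deposited count table, which lists 26364 genes. All 42 were listed there, and all 42 passed the filter on low counts that left 15087 genes for testing. By role, 4 are transporters of glucose or of lactate and other monocarboxylates, 9 act in upper glycolysis, 3 make or break down fructose-2,6-bisphosphate, 7 act in lower glycolysis and on lactate, 4 encode pyruvate dehydrogenase subunits or the kinases that inhibit it, 6 belong to the pentose phosphate pathway and 9 to the TCA cycle.

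The study treated 2 established human lymphoma lines in culture, JeKo-1 and Granta-519, both known as mantle cell lymphoma lines, with chidamide or with vehicle. Chidamide is a benzamide inhibitor of class I histone deacetylases, the enzymes that remove acetyl groups from histones, and it was given at 4 µM for 12 h. PolyA RNA was sequenced in 3 libraries for each of the 4 groups, which were JeKo-1 vehicle, JeKo-1 chidamide, Granta-519 vehicle and Granta-519 chidamide. Each line is a single cell population, and no label tells whether the 3 libraries of a group are separate cultures. The p-values thus cover the library-to-library spread alone, and that spread may be technical.

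Depth ran from 12873642 to 16592694 counts per library. Libraries of 1 group differed by more than sampling noise (chi-square per gene 1.634 to 5.63), so none was counted as a repeat of another. The 12 B cell markers were all above 0 in every group. In the 6 libraries labelled JeKo-1, however, the mantle cell lymphoma gene SOX11 had 0 counts in each and CCND1 had 1 to 18 counts, against 23927 to 33534 counts of CCND1 in the Granta-519 libraries, so these 6 are called the libraries labelled JeKo-1, or JeKo-1 label, throughout.

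Glucose enters the cell through GLUT proteins and is trapped by hexokinase. Glycolysis then splits it into pyruvate, which is reduced to lactate and exported, or enters mitochondria and the TCA cycle through pyruvate dehydrogenase. The pentose phosphate pathway branches off glucose-6-phosphate and supplies NADPH and ribose for nucleotides. Growing lymphoma cells, like many proliferating cells, are known to use much of their glucose in this way, and MYC and the hypoxia-inducible factors are known activators of many of these genes. Bulk RNA-seq cannot tell fewer cells that express a gene from less RNA per cell.

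Most of the 42 genes were lower after chidamide in both lines, with a few transporters and regulatory enzymes moving the other way. In the libraries labelled JeKo-1, 27 fell, 9 rose and 6 did not pass the test, a gene being called at an adjusted p under 0.05 (edgeR's quasi-likelihood test, Benjamini-Hochberg over the 15087 genes). The drug moved most of the transcriptome: of all tested genes, 31.1% were called lower and 35.3% higher. The lower calls thus covered 64.3% of the 42 genes against 31.1% of all genes, and the median log2 change was −0.32 against 0.04 over all genes. In Granta-519, 28 fell, 7 rose and 7 did not pass, where 31.3% of all genes were called lower and 39.6% higher, and the median log2 change was −0.28 against 0.08. The 2 comparisons share no library, but all 12 libraries were filtered, scaled and fitted together with a shared spread. The 2 results are thus not fully independent. The 42 genes were chosen with earlier results of these data known, so their excess of lower calls may follow in part from the choice. Of 69 further tested genes of these pathways, 43.5% were called lower under the JeKo-1 label and 42% in Granta-519. Their median log2 changes were −0.07 and −0.06.

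Large changes were fewer. At 1.5-fold or more, 6 of the 42 genes fell and 1 rose under the JeKo-1 label, where 11.1% of all genes were called that far down and 23.6% that far up. In Granta-519, 7 fell and 3 rose at that size, against 10.9% and 26.1% of all genes. The share of the 42 genes lower by 1.5-fold, 14.3% under the JeKo-1 label and 16.7% in Granta-519, was nearer to the background than the share of all lower calls. The other 21 lower genes of each line fell by less than 1.5-fold. The JeKo-1 label count rested on the scaling between libraries: scaled by the upper quartile or by library size alone, 1 gene fell and 1 rose by 1.5-fold, and 14 rose and 25 fell at the adjusted p alone. Those scalings moved the median log2 change of all genes to 0.19 and 0.18 and that of the 42 genes to −0.17 and −0.18.

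By line, 23 genes fell in both and 4 rose in both. Those that rose in both were PFKFB2, PFKFB3, PDK3 and OGDH. Another 5 were called in opposite directions, namely SLC16A1 and PFKP (lower under the JeKo-1 label, higher in Granta-519) and IDH2, FH and MDH1 (the reverse). ALDOC, PGK1 and LDHB passed in neither line, and the other 7 passed in 1 line only. These joint counts were not made for all tested genes, so they have no background share beside them. Line by line, 31.1% and 31.3% of all genes were called lower and 35.3% and 39.6% higher. Summed over the 42 genes, their transcripts went from 24530 ± 373 to 19780 ± 160 CPM (counts scaled to library size; SD, n = 3) under the JeKo-1 label, or 2.45% to 1.98% of a library. In Granta-519 the sum went from 16320 ± 117 to 13630 ± 424 CPM (SD, n = 3), or 1.63% to 1.36%. The groups of each line did not overlap in this sum, most of which is GAPDH and the other abundant enzymes of lower glycolysis.

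**Figure D1:**
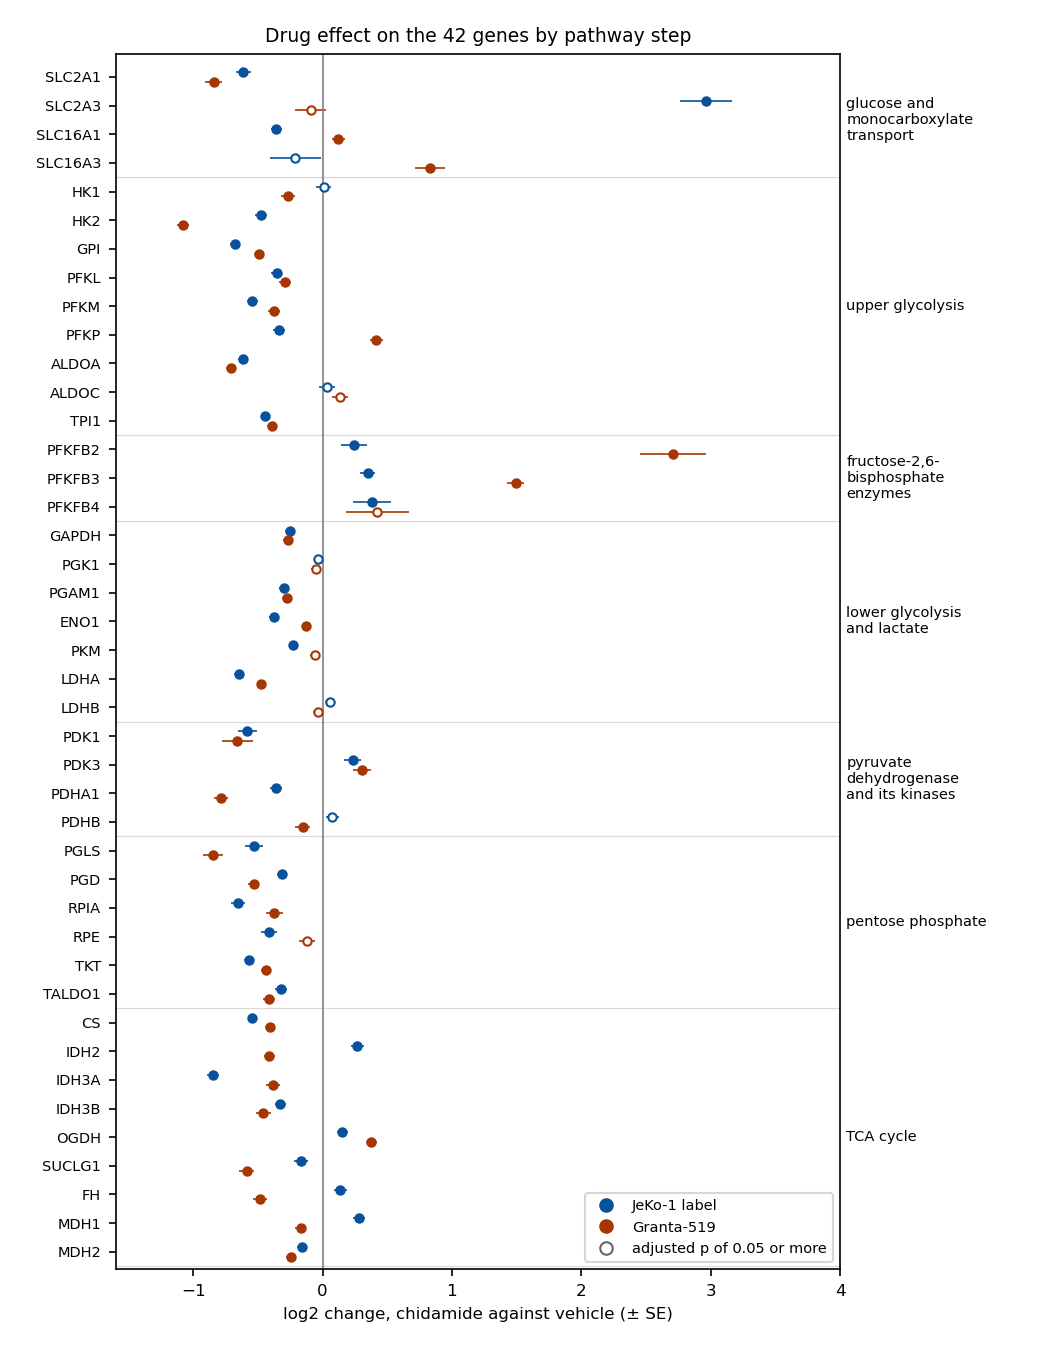
Log2 change after chidamide of each of the 42 genes, in rows by pathway step, with its SE as a bar; blue is the JeKo-1 label, red is Granta-519 and open circles mark an adjusted p of 0.05 or more. Most points lie left of 0 in both lines; SLC2A3 under the JeKo-1 label (2.96) and PFKFB2 in Granta-519 (2.71) lie farthest right.

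The 2 lines responded differently for many of the genes. The test of the difference itself, the change under the JeKo-1 label minus that in Granta-519, called 28 of the 42 genes, 12 of them more positive and 16 more negative under the JeKo-1 label. Over all genes 20.0% were called more positive and 19.5% more negative. With a difference of 1.5-fold or more there were 4 on each side, against 10.3% and 7.24% of all genes. SLC2A3, HK2, IDH2 and FH were the 4 on the positive side, and SLC16A3, PFKP, PFKFB2 and PFKFB3 the 4 on the negative side. The split between the directions followed the scaling, with 16 positive and 12 negative by the upper quartile and 19 positive and 7 negative by library size alone. The 8 large differences were called under each alternative run, though their size varied.

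Promoter sequence was compared because MYC and related factors bind the E-box CACGTG, while hypoxia-inducible factors bind the shorter ACGTG. RefSeq start-site windows of 300 bases (250 before the start and 50 after, GRCh38.p14) were found for 38 of the 42 genes, with 65 windows, since some genes have several starts. CACGTG, which reads the same on both strands, occurred in at least 1 window of 7 of the 38 genes (18.4%), against 8.77% of the 27305 genes with a window in the RefSeq promoter table, which holds 35116 windows. ACGTG on either strand, which every CACGTG also contains, occurred in 16 of 38 (42.1%), against 24.9%. GGGCGG on either strand, the GC box, occurred in 32 of 38 (84.2%), against 48.3%, and the median GC content was 67.8% against 58.3%. The 38 genes have more windows per gene than the background, which raises a share counted per gene. Per window the shares were closer, at 10.8% against 7.26% for CACGTG, 30.8% against 21.4% for ACGTG and 66.2% against 45.0% for the GC box. A match is a description of the letters only; no binding was measured.

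The 7 genes with CACGTG were HK2, ALDOA, ALDOC, PFKFB3, GAPDH, LDHA and PDHB. They did not move together. HK2, ALDOA, GAPDH and LDHA fell in both lines, PFKFB3 rose in both, ALDOC passed in neither and PDHB fell in Granta-519 alone. For 5 genes a stretch is given from the window with the most CACGTG, which need not be at the gene's main start. HK2, LDHA and PFKFB3 have 2 windows each, with CACGTG in 1 of them. Each stretch lies before the start of its window and overlaps no exon of the GENCODE v29 basic annotation. It is written 5′ to 3′ on the gene's strand, with CACGTG in capitals. The LDHA window holds 2 sites, of which the stretch shows 1. Which start these cells used was not tested. LDHB, which has 1 window with no CACGTG and passed in neither line, is set beside LDHA.
HK2: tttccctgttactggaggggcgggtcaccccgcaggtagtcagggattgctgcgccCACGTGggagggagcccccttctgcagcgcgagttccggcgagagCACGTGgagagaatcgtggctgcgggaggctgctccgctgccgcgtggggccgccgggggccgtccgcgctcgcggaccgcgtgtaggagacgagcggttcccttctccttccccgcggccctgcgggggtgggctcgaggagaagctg
LDHA: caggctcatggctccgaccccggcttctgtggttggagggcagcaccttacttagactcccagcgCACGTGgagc
LDHB: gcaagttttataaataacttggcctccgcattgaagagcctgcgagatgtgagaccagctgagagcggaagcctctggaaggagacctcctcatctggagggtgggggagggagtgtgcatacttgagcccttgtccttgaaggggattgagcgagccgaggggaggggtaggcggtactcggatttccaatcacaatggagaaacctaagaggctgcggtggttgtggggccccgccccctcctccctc
GAPDH: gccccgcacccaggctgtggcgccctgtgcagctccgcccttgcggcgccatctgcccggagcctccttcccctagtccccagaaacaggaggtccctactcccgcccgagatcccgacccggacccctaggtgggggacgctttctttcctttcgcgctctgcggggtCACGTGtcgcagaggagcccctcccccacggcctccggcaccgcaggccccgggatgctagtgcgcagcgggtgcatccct
PFKFB3: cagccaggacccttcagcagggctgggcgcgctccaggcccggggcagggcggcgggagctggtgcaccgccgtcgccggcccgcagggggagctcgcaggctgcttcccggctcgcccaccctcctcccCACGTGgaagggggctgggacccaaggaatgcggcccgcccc
The HK2 stretch is chr2:74834920-74835169 on the plus strand, and its CACGTG sites begin 194 and 149 bases before the start. The LDHA stretch is chr11:18394313-18394387 on the plus strand, with a site 185 bases before the start. The LDHB stretch is chr12:21657843-21658092 on the minus strand. The GAPDH stretch is chr12:6535014-6535263 on the plus strand, with a site 81 bases before the start, and the PFKFB3 stretch is chr10:6202694-6202865 on the plus strand, with a site 108 bases before it.

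MYC itself, the E-box factor named in the study's title, went opposite ways in the lines. It fell from 329.1 ± 8.48 to 202.8 ± 5.91 CPM under the JeKo-1 label and rose from 85.1 ± 1.03 to 123.5 ± 3.63 CPM in Granta-519 (SD, n = 3). Whether MYC had a part in any change was not tested.

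Among the transporters, SLC2A1 and SLC2A3, which encode the glucose transporters GLUT1 and GLUT3, moved apart. SLC2A1 stood at 124.3, 147.6 and 127.8 CPM in the 3 vehicle libraries labelled JeKo-1 and at 85.7, 87.3 and 88.4 CPM after chidamide. The Granta-519 libraries went from 84.9, 79.9 and 74.9 CPM to 48.8, 41.9 and 43.0 CPM. It was lower in every treated library of both lines, by −0.61 ± 0.06 log2 (SE; edgeR adjusted p = 1.45e-13) under the JeKo-1 label and −0.84 ± 0.06 in Granta-519 (edgeR adjusted p = 6.92e-17).

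SLC2A3 was scarce in vehicle under the JeKo-1 label, at 1.71, 0.67 and 1.41 CPM (25, 9 and 17 counts). After chidamide it stood at 9.63, 9.53 and 10.8 CPM (163, 134 and 169 counts). Every treated library lay far above every vehicle library, and the change of 2.96 ± 0.20 log2 (edgeR adjusted p = 3.74e-19), or 7.79-fold, was the largest of the 42 genes in either line. In Granta-519 it was higher from the start, at 14.4, 12.97 and 16.1 CPM, and stood at 13.2, 12.3 and 15.3 CPM after chidamide, with overlapping groups (−0.09 ± 0.12 log2; edgeR adjusted p = 0.504). The treated libraries labelled JeKo-1 thus came to 9.97 ± 0.68 CPM (SD, n = 3), toward the Granta-519 level. The difference between the lines in the drug effect was 3.05 ± 0.24 log2 (edgeR adjusted p = 9.41e-16).

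SLC2A3 is also a gene of myeloid cells, and the myeloid marker list moved in both lines. Of its 10 genes 5 were tested, and their list summed to between 5.22 and 8.75 CPM in vehicle and between 45.0 and 46.5 CPM after chidamide under the JeKo-1 label. In Granta-519 the sums were 29.3 to 30.4 CPM and 99.1 to 107.2 CPM, with no change of SLC2A3. ITGAM was the largest part of the treated sums (23.9 to 24.7 CPM under the JeKo-1 label, 76.3 to 82.1 CPM in Granta-519). CSF1R also rose in both lines, while the CD68 groups overlapped in both. S100A8 had at most 1 count in any library, while LYZ had 41 to 66 counts in the treated libraries labelled JeKo-1. In the Granta-519 libraries LYZ had 0 to 3 counts. The T and NK cell list rose too, from between 3.31 and 5.32 to between 6.76 and 9.39 CPM under the JeKo-1 label. In Granta-519 it went from between 6.898 and 7.998 to between 12.7 and 16.7 CPM. The part of the myeloid genes in the SLC2A3 result was not tested. SLC2A14, the near-identical copy of SLC2A3, had 0 to 4 counts per library, and how reads shared between the copies were counted is not given in the sources used here.

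The monocarboxylate transporters also moved apart. SLC16A1, which encodes the lactate transporter MCT1, went from 258.1, 247.5 and 259.1 CPM to 196.2, 201.8 and 199.7 CPM under the JeKo-1 label (−0.36 ± 0.04 log2; edgeR adjusted p = 1.85e-10). Granta-519 libraries moved from 74.3, 77.2 and 74.9 CPM to 83.0, 82.3 and 80.9 CPM, a small rise of 0.12 ± 0.05 log2 (edgeR adjusted p = 0.0256). That rise lost its call without Granta-519 vehicle library 1 (adjusted p = 0.0959) or library 3 (0.0693), and when the 6 Granta-519 libraries were fitted alone (0.379). SLC16A3, which encodes the lactate exporter MCT4, rose in Granta-519 from 11.5, 13.4 and 10.5 CPM to 20.9, 22.9 and 19.3 CPM (0.83 ± 0.12 log2; edgeR adjusted p = 7.68e-09). Under the JeKo-1 label it stood at 4.03, 4.13 and 2.82 CPM in vehicle and 3.13, 2.56 and 3.82 CPM after chidamide, with overlapping groups (edgeR adjusted p = 0.353). Both transporters differed between the lines in their response, SLC16A1 by −0.48 ± 0.07 log2 (edgeR adjusted p = 2.34e-08) and SLC16A3 by −1.04 ± 0.23 (edgeR adjusted p = 1.79e-04).

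In upper glycolysis, 7 of 9 genes (77.8%) fell in each line, beside 31.1% and 31.3% of all genes. The 24 further tested genes of glycolysis, gluconeogenesis and glycogen entry rose more often than they fell. Under the JeKo-1 label 12 rose and 8 fell (50% and 33.3%), with a median log2 change of 0.16. In Granta-519 11 rose and 7 fell (45.8% and 29.2%), with a median of 0.31. Of all genes 35.3% and 39.6% rose. HK2, the hexokinase isozyme known to be induced in tumours, stood at 190.0, 199.6 and 184.2 CPM in the Granta-519 vehicle libraries and at 89.6, 92.5 and 89.2 CPM after chidamide. The libraries labelled JeKo-1 went from 164.1, 166.0 and 160.3 CPM to 115.7, 118.2 and 118.7 CPM. The decrease was larger in Granta-519 (−1.08 ± 0.05 log2; edgeR adjusted p = 2.02e-27) than under the JeKo-1 label (−0.48 ± 0.05; edgeR adjusted p = 2.29e-13), by a tested difference of 0.60 ± 0.07 log2 (edgeR adjusted p = 4.76e-11). HK1, the more widely expressed isozyme, went from 67.7 ± 3.37 to 68.2 ± 3.82 CPM under the JeKo-1 label and fell from 99.4 ± 1.42 to 82.6 ± 0.84 CPM in Granta-519 (SD, n = 3). Under the JeKo-1 label HK1 passed as higher under 3 alternatives, by 0.14 to 0.16 log2.

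GPI, which turns glucose-6-phosphate into fructose-6-phosphate, fell most in upper glycolysis under the JeKo-1 label. It went from 841.5, 858.5 and 829.9 CPM to 518.5, 531.2 and 531.4 CPM (−0.68 ± 0.04 log2; edgeR adjusted p = 2.77e-23). For Granta-519 the values went from 400.1, 392.5 and 379.5 CPM to 282.0, 281.5 and 271.2 CPM (−0.49 ± 0.04 log2; edgeR adjusted p = 5.75e-17). No treated library of a line reached its lowest vehicle library.

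The 3 phosphofructokinase genes encode subunits of the enzyme that commits sugar to glycolysis. PFKL, the liver-type subunit, and PFKM, the muscle-type subunit, fell in both lines by between −0.54 and −0.29 log2. PFKP, the platelet-type subunit, went from 182.2, 196.0 and 177.9 CPM to 137.4, 149.8 and 153.2 CPM under the JeKo-1 label. In Granta-519 it went the other way, from 99.3, 97.3 and 96.1 CPM to 133.6, 131.8 and 124.9 CPM. The groups did not overlap in either line, and the changes of −0.34 ± 0.05 and 0.42 ± 0.05 log2 differed by −0.75 ± 0.07 (edgeR adjusted p = 2.43e-13). After chidamide the 2 lines stood at 146.8 ± 8.31 and 130.1 ± 4.59 CPM (SD, n = 3), closer together than in vehicle.

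ALDOA and ALDOC encode aldolase isozymes, which split fructose-1,6-bisphosphate. ALDOA went from 1507, 1612 and 1519 CPM to 994.8, 1026 and 1011 CPM under the JeKo-1 label (−0.61 ± 0.04 log2; edgeR adjusted p = 4.93e-21). The Granta-519 libraries went from 1171, 1175 and 1136 CPM to 733.5, 733.2 and 661.1 CPM (−0.71 ± 0.04; edgeR adjusted p = 1.37e-23). The test of the difference between the lines did not pass (0.10 ± 0.05; edgeR adjusted p = 0.146). It passed under 5 of 19 alternatives, among them library size alone and the fit without JeKo-1 label vehicle library 2, at up to 0.26 log2. ALDOC stood between 72.4 and 88.4 CPM in all 6 libraries labelled JeKo-1 and between 52.7 and 64.3 CPM in all 6 of Granta-519, and passed in neither line. Its Granta-519 value of 0.14 ± 0.06 log2 (edgeR adjusted p = 0.0591) passed without Granta-519 chidamide library 3 (0.20 log2; adjusted p = 0.00842) and under several other settings. TPI1, the triose isomerase, fell by −0.44 ± 0.04 log2 under the JeKo-1 label and −0.39 ± 0.04 in Granta-519.

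**Figure D2:**
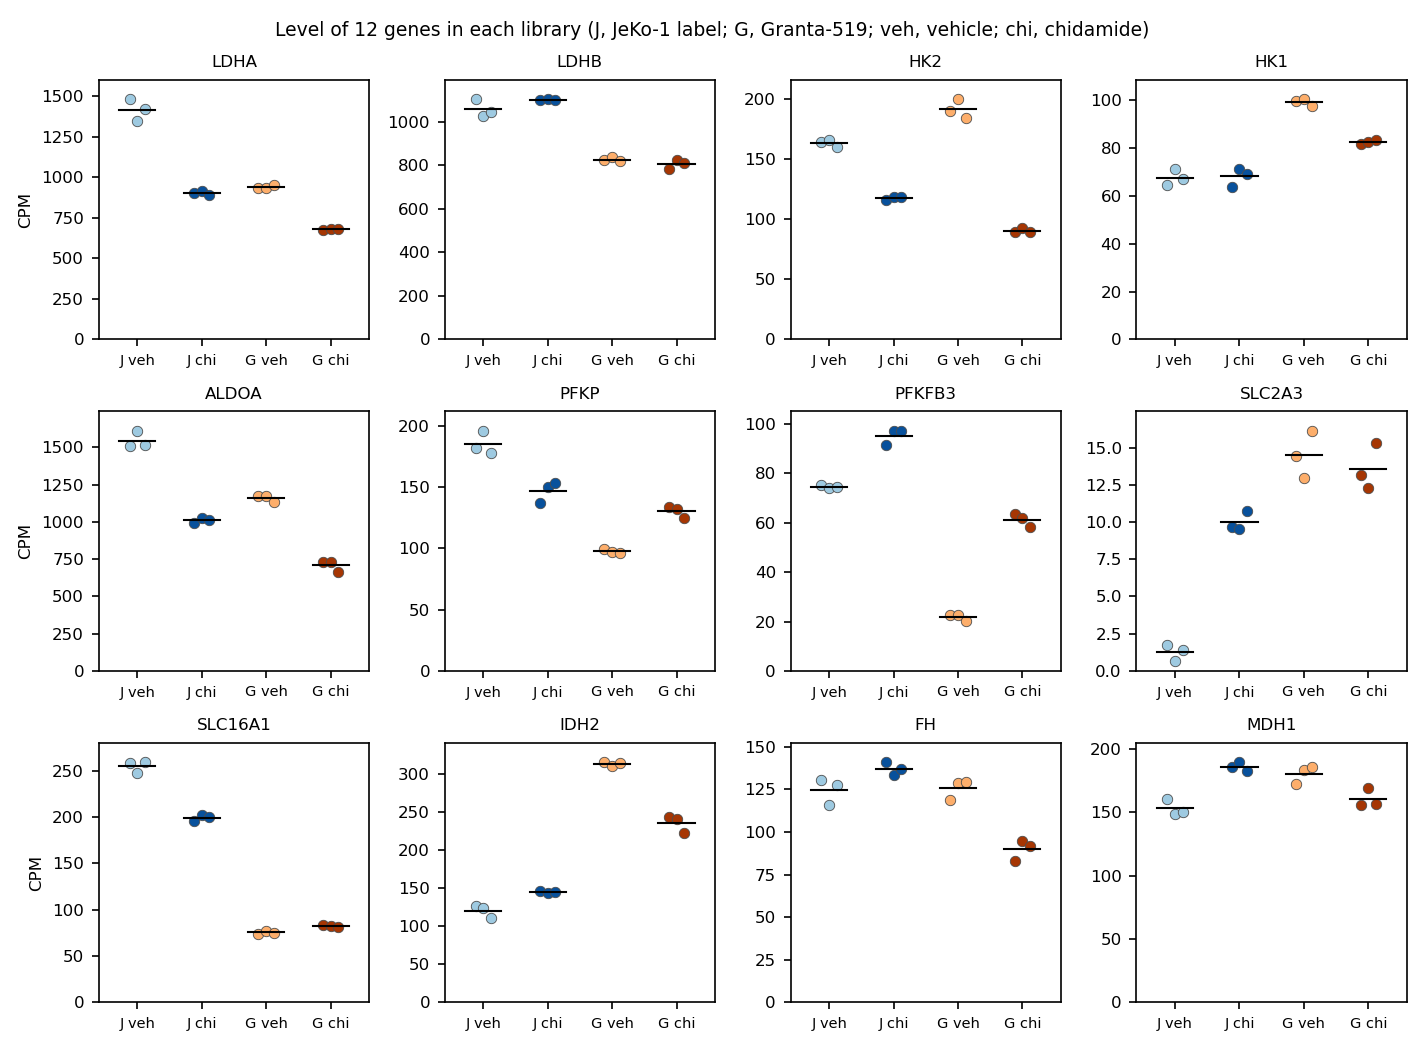
Level of 12 of the genes in each library, in CPM on an axis from 0; each point is a library and the line is the group mean (n = 3). LDHA, HK2 and ALDOA are lower after chidamide in both lines while LDHB is nearly level; PFKP, SLC16A1, IDH2, FH and MDH1 move in opposite directions in the 2 lines.

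The bifunctional enzymes of the PFKFB family set the level of fructose-2,6-bisphosphate, a potent activator of phosphofructokinase. All 3 genes were called higher under the JeKo-1 label and 2 of 3 in Granta-519, and none was called lower. Of all genes 35.3% and 39.6% were called higher. PFKFB3, the isoform known for its high kinase activity, stood at 22.5, 22.5 and 20.3 CPM in the Granta-519 vehicle libraries and at 63.5, 61.9 and 58.4 CPM after chidamide, a change of 1.49 ± 0.07 log2 (edgeR adjusted p = 9.25e-27), or 2.81-fold. The libraries labelled JeKo-1 went from 75.3, 74.2 and 74.4 CPM to 91.4, 97.0 and 97.3 CPM (0.35 ± 0.06 log2; edgeR adjusted p = 2.71e-07). The difference between the lines was −1.14 ± 0.09 log2 (edgeR adjusted p = 4.05e-16).

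PFKFB2, the heart-type isoform, was scarce in Granta-519 vehicle, with 8, 11 and 9 counts, and had 56, 54 and 65 counts after chidamide. In CPM these were 0.52, 0.70 and 0.60 against 3.84, 3.81 and 4.41, a change of 2.71 ± 0.25 log2 (edgeR adjusted p = 5.54e-14). Under the JeKo-1 label, where the gene was more abundant, it went from 20.1, 17.6 and 19.96 CPM to 23.0, 24.6 and 20.8 CPM (0.25 ± 0.10 log2; edgeR adjusted p = 0.0266). That smaller call did not stand without JeKo-1 label chidamide library 1 (adjusted p = 0.0546) or library 2 (0.112), or without vehicle library 2 (0.109). PFKFB4, the testis-type isoform, rose from 7.28 ± 0.68 to 9.53 ± 1.04 CPM (SD, n = 3) under the JeKo-1 label (0.39 ± 0.15 log2; edgeR adjusted p = 0.0192), a call lost without chidamide library 3 (0.11) or vehicle library 3 (0.0627). In Granta-519 it had 1.72 ± 0.27 and 2.30 ± 0.39 CPM (SD, n = 3; edgeR adjusted p = 0.115).

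Lower glycolysis was lowered unevenly, with 5 of 7 genes called lower under the JeKo-1 label and 4 of 7 in Granta-519, and none higher in either. These are 71.4% and 57.1%, beside 31.1% and 31.3% of all genes. LDHA, which encodes the muscle-type subunit of lactate dehydrogenase, went from 1482, 1346 and 1419 CPM to 904.0, 917.3 and 891.1 CPM under the JeKo-1 label (−0.65 ± 0.04 log2; edgeR adjusted p = 7.56e-23). Granta-519 libraries moved from 936.7, 935.7 and 951.7 CPM to 675.0, 681.8 and 679.5 CPM (−0.47 ± 0.04; edgeR adjusted p = 3.56e-17). LDHB, the heart-type subunit, stood at 1105, 1029 and 1046 CPM in vehicle and 1103, 1105 and 1099 CPM after chidamide under the JeKo-1 label. In Granta-519 it stood at 823.6, 836.7 and 820.4 CPM and at 785.0, 823.8 and 811.9 CPM. Its groups overlapped in both lines and its test did not pass in either (0.06 ± 0.04 and −0.04 ± 0.04 log2; edgeR adjusted p = 0.161 and 0.379). Under the JeKo-1 label LDHB passed as higher under 7 of the alternatives, among them upper-quartile scaling (0.20 log2) and the fit without vehicle library 1 (0.10 log2; adjusted p = 0.0152). In Granta-519 it passed as lower with no count filter (−0.14 log2; adjusted p = 6.60e-04) and with the 6 Granta-519 libraries alone (−0.10 log2; adjusted p = 0.00581).

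GAPDH, often used as a reference gene, fell in both lines, from 4998 ± 151 to 4198 ± 58.8 CPM under the JeKo-1 label (−0.25 ± 0.03 log2; edgeR adjusted p = 6.22e-09) and from 4191 ± 48.1 to 3479 ± 184 CPM in Granta-519 (−0.27 ± 0.03; edgeR adjusted p = 1.05e-09; SD, n = 3). PGAM1, a phosphoglycerate mutase, fell by −0.30 ± 0.04 and −0.27 ± 0.04 log2. ENO1, the main enolase, went from 3115 ± 71.3 to 2400 ± 9.68 CPM under the JeKo-1 label and from 907.1 ± 21.2 to 832.3 ± 40.6 CPM in Granta-519 (SD, n = 3). The ENO1 decrease was larger under the JeKo-1 label (−0.38 ± 0.04 against −0.12 ± 0.04 log2; difference −0.25 ± 0.05, edgeR adjusted p = 4.11e-05), and the Granta-519 call was lost without chidamide library 3 (adjusted p = 0.0623) and under upper-quartile scaling (−0.03 log2; adjusted p = 0.514). The difference itself did not pass with no count filter or by limma on the score. PKM, the pyruvate kinase gene, fell under the JeKo-1 label (−0.22 ± 0.03 log2) and did not pass in Granta-519 (−0.06 ± 0.03; edgeR adjusted p = 0.106), but passed as lower there with no count filter (−0.17 log2; adjusted p = 1.56e-05) and with the 6 Granta-519 libraries alone (−0.13 log2; adjusted p = 4.36e-04). PGK1, the phosphoglycerate kinase that makes ATP, stood at 608.8 ± 21.5 and 595.5 ± 2.36 CPM under the JeKo-1 label and at 730.2 ± 15.1 and 704.3 ± 17.5 CPM in Granta-519 (SD, n = 3), passing in neither line. In Granta-519 it too passed as lower with no count filter (−0.16 log2; adjusted p = 1.80e-04) and with those 6 libraries alone (−0.12 log2; adjusted p = 0.00165). Its sign under the JeKo-1 label turned with the scaling, from −0.03 to 0.11 log2 by the upper quartile.

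Pyruvate dehydrogenase is switched off by its kinases. PDHA1, its catalytic alpha subunit, went from 87.6, 97.5 and 97.5 CPM to 51.3, 55.6 and 57.0 CPM in Granta-519 (−0.79 ± 0.05 log2; edgeR adjusted p = 7.76e-19). The libraries labelled JeKo-1 went from 245.4, 250.4 and 229.7 CPM to 186.9, 188.9 and 189.9 CPM (−0.36 ± 0.05; edgeR adjusted p = 1.47e-09), and the lines differed by 0.43 ± 0.07 log2 (edgeR adjusted p = 2.32e-06). PDHB, the beta subunit, stood at 125.7 ± 6.33 and 132.5 ± 3.23 CPM under the JeKo-1 label and at 60.8 ± 1.82 and 54.6 ± 2.57 CPM in Granta-519 (SD, n = 3). Under the JeKo-1 label PDHB did not pass in the main fit but passed as higher under 4 alternatives, among them upper-quartile scaling (0.22 log2). The Granta-519 decrease (−0.15 ± 0.06 log2; edgeR adjusted p = 0.0158) lost its call without chidamide library 2 (0.0675) or 3 (0.14), by RLE scaling (0.0705), with DESeq2 (0.0851) and most by the upper quartile (−0.06 log2; adjusted p = 0.386).

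The 2 kinase genes moved in opposite directions in both lines. PDK1, a known target of hypoxia-inducible factors, went from 64.6, 58.1 and 62.7 CPM to 39.8, 44.3 and 40.0 CPM under the JeKo-1 label (−0.58 ± 0.08 log2; edgeR adjusted p = 1.34e-09). For Granta-519 the values went from 12.5, 9.05 and 11.5 CPM to 7.12, 6.36 and 7.39 CPM (−0.66 ± 0.12; edgeR adjusted p = 4.30e-06). PDK3 went from 48.9, 41.4 and 50.04 CPM to 55.4, 53.1 and 56.2 CPM under the JeKo-1 label (0.23 ± 0.07; edgeR adjusted p = 0.00208) and from 41.1, 40.0 and 38.3 CPM to 47.5, 49.4 and 50.7 CPM in Granta-519 (0.31 ± 0.07; edgeR adjusted p = 9.04e-05). The vehicle and chidamide libraries of a line did not overlap for either gene.

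The pentose phosphate genes among the 42 fell together. All 6 were called lower under the JeKo-1 label and 5 of 6 in Granta-519, with log2 changes from −0.65 to −0.31 and from −0.85 to −0.12. Of all genes 31.1% and 31.3% were called lower. The 8 further tested genes of this pathway moved both ways. Under the JeKo-1 label 3 fell and 3 rose (37.5% each), and in Granta-519 2 fell and 2 rose (25% each). RPIA, which makes ribose-5-phosphate, went from 153.5, 166.9 and 165.9 CPM to 102.6, 102.3 and 104.0 CPM under the JeKo-1 label (−0.65 ± 0.05; edgeR adjusted p = 3.13e-16). In Granta-519 it went from 49.0, 43.9 and 47.4 CPM to 39.2, 33.1 and 35.9 CPM (−0.37 ± 0.07; edgeR adjusted p = 1.29e-06). PGLS, the lactonase of the oxidative branch, fell most in Granta-519, from 48.0, 42.2 and 46.6 CPM to 27.5, 27.2 and 21.4 CPM (−0.85 ± 0.08; edgeR adjusted p = 1.16e-13). Under the JeKo-1 label it fell from 83.3 ± 7.46 to 57.6 ± 2.61 CPM (SD, n = 3). PGD, the second NADPH-producing step, fell by −0.31 ± 0.04 and −0.53 ± 0.04 log2. In the sugar-exchanging branch, TKT (transketolase) fell by −0.57 ± 0.04 and −0.44 ± 0.04 and TALDO1 (transaldolase) by −0.32 ± 0.04 and −0.41 ± 0.05. RPE, the ribulose-phosphate epimerase, fell under the JeKo-1 label (−0.41 ± 0.06) and had −0.12 ± 0.06 in Granta-519 (edgeR adjusted p = 0.0929), which passed without Granta-519 chidamide library 1 (0.042) or vehicle library 2 (0.0184).

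Of the 9 TCA cycle genes, 3 moved in opposite directions in the lines. All 9 genes were called in both, with 4 higher and 5 lower under the JeKo-1 label against 1 higher and 8 lower in Granta-519. Of all genes 66.4% were called under the JeKo-1 label and 70.9% in Granta-519. CS, IDH3A, IDH3B, SUCLG1 and MDH2 fell in both lines and OGDH rose in both. A further 18 tested genes of the TCA cycle and malic enzymes mostly fell or did not pass in either line. Under the JeKo-1 label 8 of them fell and 2 rose (44.4% and 11.1%, beside 31.1% and 35.3% of all genes). In Granta-519 11 fell and 2 rose (61.1% and 11.1%, beside 31.3% and 39.6%). IDH3A, the catalytic subunit of the NAD-dependent isocitrate dehydrogenase, fell most under the JeKo-1 label, from 267.7, 233.7 and 260.5 CPM to 141.8, 142.4 and 139.2 CPM (−0.85 ± 0.05 log2; edgeR adjusted p = 2.05e-22). The Granta-519 libraries went from 124.8, 121.1 and 125.1 CPM to 88.4, 97.4 and 98.9 CPM (−0.38 ± 0.05; edgeR adjusted p = 3.07e-09). IDH3B, a regulatory subunit of the same enzyme, fell by −0.33 ± 0.04 and −0.46 ± 0.06, and CS, citrate synthase, by −0.54 ± 0.04 and −0.41 ± 0.04.

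IDH2, FH and MDH1 rose under the JeKo-1 label and fell in Granta-519. IDH2, the mitochondrial NADP-dependent isocitrate dehydrogenase, went from 126.3, 123.9 and 110.3 CPM to 146.5, 143.3 and 145.4 CPM under the JeKo-1 label (0.27 ± 0.05 log2; edgeR adjusted p = 1.86e-06). Granta-519 libraries moved from 315.4, 311.0 and 313.8 CPM to 243.9, 240.8 and 222.3 CPM (−0.41 ± 0.04; edgeR adjusted p = 4.77e-12). The groups did not overlap in either line, and the difference in response was 0.68 ± 0.07 log2 (edgeR adjusted p = 6.92e-13).

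FH, fumarate hydratase, stood at 130.6, 115.9 and 127.8 CPM in vehicle and 141.0, 133.5 and 137.2 CPM after chidamide under the JeKo-1 label (0.14 ± 0.05 log2; edgeR adjusted p = 0.0177), a call lost without chidamide library 1 (0.0561) or vehicle library 2 (0.0926). For Granta-519 the values went from 119.0, 128.8 and 129.4 CPM to 82.9, 94.6 and 91.8 CPM (−0.49 ± 0.05; edgeR adjusted p = 1.04e-11). MDH1, the cytosolic malate dehydrogenase, went from 160.6, 148.7 and 150.1 CPM to 186.1, 189.5 and 182.8 CPM under the JeKo-1 label (0.28 ± 0.05; edgeR adjusted p = 4.48e-07) and from 172.7, 183.0 and 186.0 CPM to 155.6, 169.4 and 156.6 CPM in Granta-519 (−0.17 ± 0.05; edgeR adjusted p = 9.62e-04). The differences in response were 0.62 ± 0.07 for FH (edgeR adjusted p = 6.60e-10) and 0.45 ± 0.07 for MDH1 (edgeR adjusted p = 8.82e-08). The Granta-519 call of MDH1 did not stand under upper-quartile scaling (−0.07 log2; adjusted p = 0.148).

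SUCLG1, a subunit of succinyl-CoA ligase, fell from 74.4 ± 1.95 to 49.6 ± 2.68 CPM in Granta-519 (SD, n = 3; −0.59 ± 0.06 log2; edgeR adjusted p = 3.18e-13). The libraries labelled JeKo-1 went from 85.7 ± 2.21 to 76.4 ± 0.68 CPM (SD, n = 3; −0.17 ± 0.06; edgeR adjusted p = 0.00655), a call lost by the upper quartile (−0.02 log2; adjusted p = 0.772) and under 3 other settings. MDH2, the mitochondrial malate dehydrogenase, fell by −0.16 ± 0.04 and −0.24 ± 0.04, and the JeKo-1 label call was likewise lost by the upper quartile (−0.01 log2; adjusted p = 0.842). OGDH, the first subunit of the 2-oxoglutarate dehydrogenase complex, rose from 594.0 ± 34.4 to 661.0 ± 6.34 CPM under the JeKo-1 label and from 207.6 ± 9.10 to 269.7 ± 14.7 CPM in Granta-519 (SD, n = 3).

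A change in the ratio between isozymes of 1 step does not depend on gene length and hardly depends on the scaling between libraries. Each was taken as the log2 ratio of CPM in each library, with 0.5 CPM added, and compared by a two-sided exact permutation test, which for 3 against 3 libraries cannot go below p = 0.10. The LDHA to LDHB ratio went from 0.42 ± 0.03 to −0.29 ± 0.02 under the JeKo-1 label and from 0.19 ± 0.03 to −0.25 ± 0.03 in Granta-519 (SD, n = 3). In both lines the counts of LDHA were above those of LDHB in every vehicle library and below them in every treated one. The sign of a ratio, unlike its change, depends on gene length, and per length LDHB was above LDHA in every group. The HK2 to HK1 ratio went from 1.27 ± 0.06 to 0.78 ± 0.06 and from 0.94 ± 0.04 to 0.13 ± 0.04. The ALDOC to ALDOA ratio shifted by 0.65 and 0.84, and the PDK1 to PDK3 ratio by −0.81 and −0.92.

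Other pairs shifted in 1 line or unequally. The SLC2A3 to SLC2A1 ratio shifted by 3.22 under the JeKo-1 label, or 2.49 with 2 CPM added, and by 0.75 in Granta-519. The groups stood apart in Granta-519 but overlapped under the JeKo-1 label for PFKP to PFKL (0.71 against 0.02), SLC16A3 to SLC16A1 (0.69 against 0.18) and PFKFB4 to PFKFB3 (−1.14 against 0.02). PFKM to PFKL stood apart under the JeKo-1 label (−0.19) and overlapped in Granta-519 (−0.08). Of the 18 comparisons, the 14 with groups apart had the smallest exact p the design allows, 0.10, and an adjusted p of 0.129 over the 18.

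**Figure D3:**
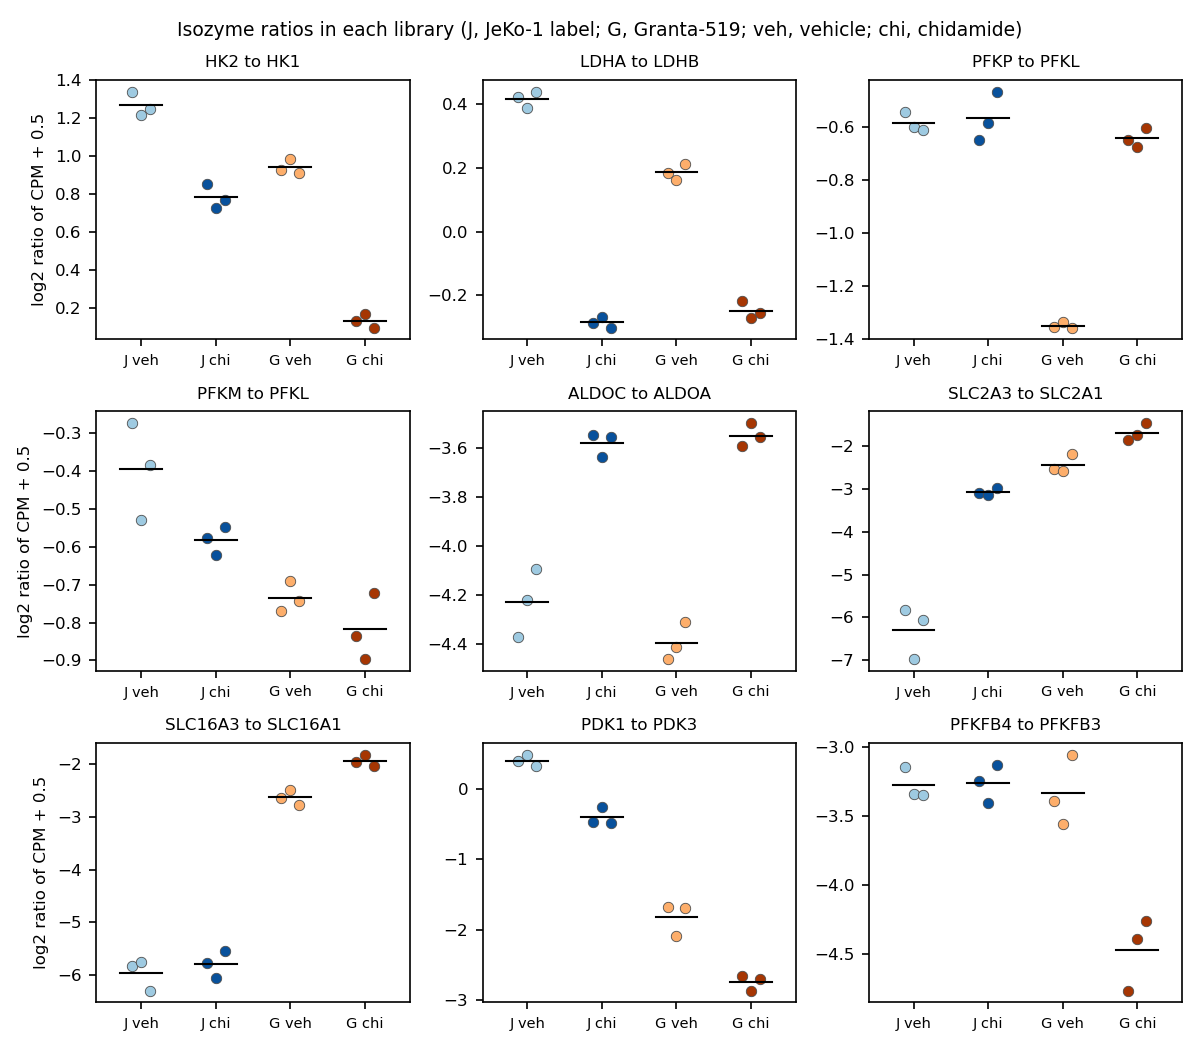
Log2 ratio of CPM (0.5 added) between the isozymes of 9 pairs in each library; each point is a library and the line is the group mean (n = 3), and the axes do not start at 0. LDHA to LDHB falls from above 0 to below 0 in both lines, while PFKP to PFKL shifts in Granta-519 alone. The ratios are not corrected for gene length, so the place of 0 has no meaning for which isozyme is more abundant.

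Levels of different genes can be compared only per length, which was done with the deposited length-scaled score and again with CPM per kilobase of exon. By both measures GAPDH was the highest of the 42 in all 4 groups, with a mean score of 438.6 in JeKo-1 label vehicle and 406.0 in Granta-519 vehicle. ENO1 was next under the JeKo-1 label, at 174.3, and stood at 56.0 in Granta-519 vehicle. Per length LDHB was above LDHA in every group, with scores of 119.5 and 72.3 in JeKo-1 label vehicle and 102.9 and 53.1 in Granta-519 vehicle. HK2 was above HK1 in vehicle in both lines, at 4.27 against 2.84 and 5.52 against 4.61. After chidamide in Granta-519 the order turned, with 2.59 for HK2 and 3.81 for HK1.

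Before treatment the lines differed in nearly every gene. In vehicle, 34 of the 42 genes were higher under the JeKo-1 label, 7 were lower and 1, FH, did not pass; of all genes 35.5% were called higher and 44.3% lower. By 1.5-fold or more 26 were higher and 3 lower, against 21.7% and 32.9% of all genes. The median log2 difference was 0.72 over the 42 genes and −0.13 over all genes. PFKFB2 differed most, at 19.2 ± 1.39 against 0.61 ± 0.09 CPM (SD, n = 3; 4.97 ± 0.19 log2, edgeR adjusted p = 2.96e-31). PDK1 (2.49 ± 0.09), IDH3B (2.37 ± 0.05), PFKFB4 (2.09 ± 0.20), RPIA (1.79 ± 0.06), ENO1 (1.78 ± 0.04), PFKFB3 (1.78 ± 0.07) and SLC16A1 (1.76 ± 0.05) followed. Higher in Granta-519 by at least 1.5-fold were SLC2A3 (−3.50 ± 0.19), SLC16A3 (−1.68 ± 0.16) and IDH2 (−1.38 ± 0.05), and by less HK1, PGK1, MDH1 and HK2. All 6 pentose phosphate genes were higher under the JeKo-1 label by at least 1.5-fold. MYC was also higher there, at 329.1 ± 8.48 against 85.1 ± 1.03 CPM (SD, n = 3), and its part in these differences was not tested. The lines cannot be told apart from any other difference between the 2 cultures.

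**Figure D4:**
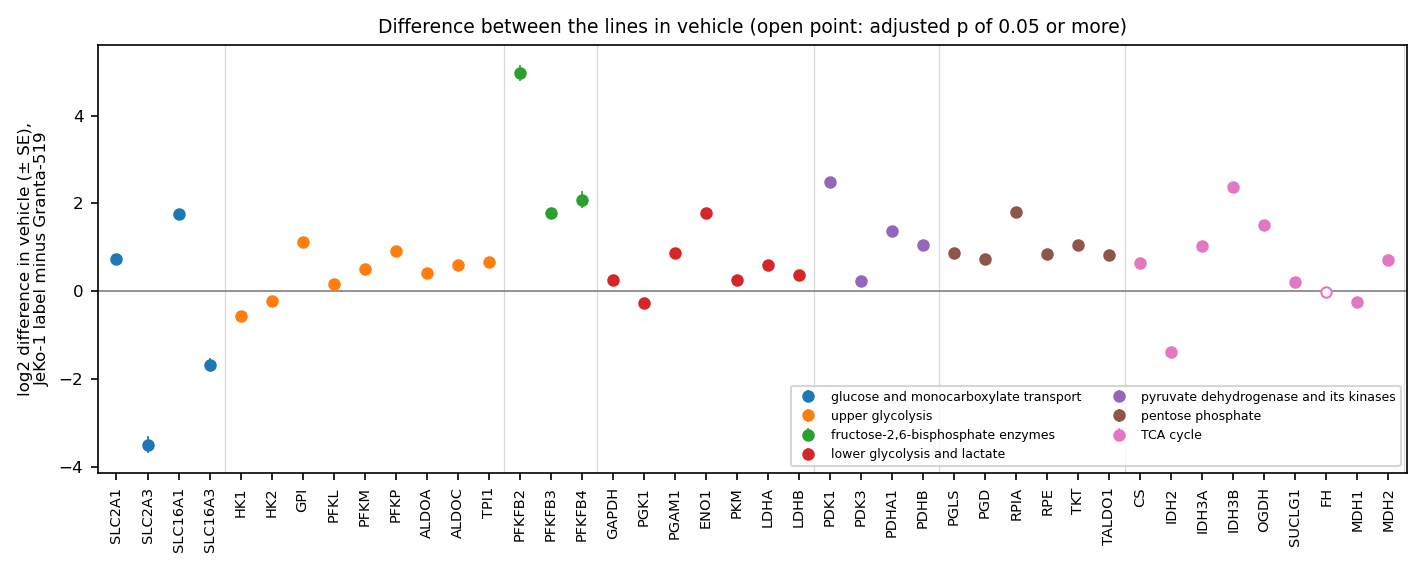
Log2 difference between the lines in vehicle (JeKo-1 label minus Granta-519) for each of the 42 genes, coloured by pathway step, with the SE as a bar; the open point has an adjusted p of 0.05 or more. 34 genes lie significantly above 0; PFKFB2 (4.97) is the highest and SLC2A3 (−3.50) the lowest.

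Further genes of these pathways moved both ways. Of 89 listed, 69 were tested. Under the JeKo-1 label 30 fell and 21 rose, or 43.5% and 30.4%, beside 31.1% and 35.3% of all genes. In Granta-519 29 fell and 19 rose, or 42% and 27.5%, beside 31.3% and 39.6%. Their median log2 changes were −0.07 and −0.06. PDPR, the regulatory subunit of the pyruvate dehydrogenase phosphatase, was among the lowest in both lines. It went from 105.5, 106.4 and 117.2 CPM to 54.6, 52.7 and 51.3 CPM under the JeKo-1 label (−1.05 ± 0.06 log2; edgeR adjusted p = 1.74e-23) and by −1.09 ± 0.05 in Granta-519 (edgeR adjusted p = 1.02e-24). SLC2A8, a GLUT-family transporter gene, fell by −1.37 ± 0.12 and −1.50 ± 0.14. SHPK, sedoheptulokinase, fell by −1.02 ± 0.09 under the JeKo-1 label. In Granta-519 SHPK went from 16.0, 15.6 and 18.0 CPM to 9.11, 8.26 and 8.34 CPM.

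The further genes that rose most started from almost nothing. ENO2, the neuronal enolase, was an exception, going from 10.9, 12.9 and 9.60 CPM to 51.4, 50.4 and 47.8 CPM in Granta-519 (2.16 ± 0.09 log2; edgeR adjusted p = 6.52e-29). PYGL, liver glycogen phosphorylase, had 7, 0 and 8 counts in Granta-519 vehicle and 60, 60 and 51 after chidamide (edgeR adjusted p = 3.46e-10), and LDHD, D-lactate dehydrogenase, had 1, 2 and 0 counts against 8, 3 and 3 (edgeR adjusted p = 0.0266). Under the JeKo-1 label SLC2A9, PYGL and TKTL1 had 0 counts in all 3 vehicle libraries and 8, 7 and 7 counts in total after chidamide.

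Regulators of glucose metabolism and hypoxia targets outside the pathway were tallied from the same fit. Of 14 tested regulators, 8 fell and 4 rose under the JeKo-1 label (57.1% and 28.6%, beside 31.1% and 35.3% of all genes). In Granta-519 7 fell and 6 rose (50% and 42.9%, beside 31.3% and 39.6%). ESRRA, a nuclear receptor that drives mitochondrial genes, fell in both lines, by −0.88 ± 0.05 log2 (edgeR adjusted p = 6.46e-21) and −0.76 ± 0.07 (edgeR adjusted p = 4.48e-15). EPAS1, the hypoxia-inducible factor HIF-2 alpha, rose from 0.21, 0 and 0.25 CPM to 5.38, 4.98 and 5.22 CPM under the JeKo-1 label (edgeR adjusted p = 1.50e-15) and from 0.26, 0.25 and 0 CPM to 0.69, 0.64 and 0.47 CPM in Granta-519 (edgeR adjusted p = 0.00982).

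Of 12 tested hypoxia targets, 4 rose and 3 fell under the JeKo-1 label (33.3% and 25%) and 5 rose and 4 fell in Granta-519 (41.7% and 33.3%). These shares were near those of all genes, 35.3% and 31.1% under the JeKo-1 label and 39.6% and 31.3% in Granta-519. ADM, adrenomedullin, rose in both lines, to 1.06, 1.28 and 1.21 CPM from at most 0.07 CPM under the JeKo-1 label, and to 5.14, 4.73 and 6.10 CPM from 0.65, 0.70 and 1.67 CPM in Granta-519. DDIT4, an inhibitor of mTORC1 signalling, rose by 1.36 ± 0.08 log2 under the JeKo-1 label and EGLN3, a prolyl hydroxylase, by 2.01 ± 0.21 in Granta-519. DDIT4 was higher in Granta-519 too, with 1111, 1103 and 1065 counts after chidamide against 520, 565 and 474 in vehicle. EGLN3 had at most 1 count in any library labelled JeKo-1. BNIP3 (−0.90 ± 0.29; edgeR adjusted p = 0.00571) under the JeKo-1 label and ANKRD37 (−0.70 ± 0.29; edgeR adjusted p = 0.0287) in Granta-519 fell, both below 3 CPM. In Granta-519 BNIP3 was more abundant and also lower, with 192, 214 and 218 counts after chidamide against 279, 311 and 255 in vehicle.

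Some counts may be shared with other genes. In GENCODE v29, exons of 10 of the 42 genes overlap those of another gene in the table: SLC2A1, SLC16A3, PFKM, TPI1, PGK1, ENO1, PDHA1, RPE, IDH3A and MDH1. Whether the counting used strand is not given in the sources used here, so reads in those overlaps are uncertain, the longest being 2608 bases between IDH3A and ACSBG1. PGAM1 has the near-identical copy PGAM4, which had 36 to 199 counts per library, and GAPDH, LDHA, PGK1 and ENO1 have many processed pseudogenes.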

How the data were processed

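PolyA RNA-seq of 12 libraries was read from the 2 tables of the series. The deposited gene counts are raw whole numbers per gene; the aligner was STAR and the build hg19, per the submitters' processing notes, while the counter and annotation are not given in the sources used here. The second deposited table, named TPM by the authors, holds a length-scaled score (count over a gene constant and the library total) and was used as such; 6 unnamed empty columns were not used. Symbols turned into dates (28 names) held 0.26% of counts.

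Counts were tested with edgeR 4.0.16 (R 4.3.3): low-count filter, TMM scaling, robust quasi-likelihood fit of 4 group means with 8 residual degrees of freedom, and Benjamini-Hochberg adjustment over 15087 genes at 0.05. The common biological coefficient of variation was 0.0422. SE is the log2 change divided by the root of F. CPM uses TMM-scaled library sizes. The fit was checked on simulated counts. DESeq2 1.42.0 and limma 3.58.1 on log2(score + 0.1), for scores of at least 0.1 in 3 libraries, were alternatives, with other scalings, no filter, a replicate block, the compared libraries alone and each library left out. Named genes were those called at 1.5-fold or more in either line or between lines, the isozyme pairs, and the 3 highest and 3 lowest called genes per list kind; the other members are given by step. Some genes named by this rule are not reported here. The 42 members and all lists were chosen with earlier results of these data known. Exon overlaps and lengths are from GENCODE v29 and promoters from RefSeq, both GRCh38. A planned comparison of isozyme protein sequences was not run.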

Additional observations from a re-analysis of the deposited data

Results flagged for a closer look

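For 28 of the 42 genes the change after chidamide differed between the lines when the difference itself was tested (edgeR's quasi-likelihood test of the interaction, adjusted p under 0.05 over 15087 genes; 39.5% of all genes passed). Values are log2 change under the JeKo-1 label minus that in Granta-519. More positive under the JeKo-1 label were SLC2A3 (3.05), IDH2 (0.68), FH (0.62), HK2 (0.60), MDH1 (0.45), PDHA1 (0.43), SUCLG1 (0.42), PGLS (0.31), HK1 (0.28), PDHB (0.23), SLC2A1 (0.23) and PGD (0.22). More negative there were PFKFB2 (−2.47), PFKFB3 (−1.14), SLC16A3 (−1.04), PFKP (−0.75), SLC16A1 (−0.48), IDH3A (−0.47), RPE (−0.29), RPIA (−0.28), ENO1 (−0.25), OGDH (−0.22), GPI (−0.19), LDHA (−0.18), PFKM (−0.17), PKM (−0.16), CS (−0.13) and TKT (−0.13). The opposite signs of the change itself, called in each line, belonged to PFKP, SLC16A1, IDH2, FH and MDH1. For GPI, LDHA, ENO1, PFKM, RPIA, TKT, CS and IDH3A the gene fell in both lines, by more under the JeKo-1 label. For SLC2A1, HK2, PDHA1, PGLS, PGD and SUCLG1 it fell in both, by more in Granta-519. Several of the smaller differences were not stable. Of 19 alternatives, the call was lost or turned under 14 for CS, 13 for TKT, 11 for PFKM and 9 for SLC2A1, most of them fits that left out 1 library. It was lost under 4 for PKM, 3 each for GPI, LDHA, OGDH, RPE and RPIA, and 2 for ENO1, in each case by scaling, with no count filter or by limma on the score, and under 2 each for PDHB and PGLS on leaving out 1 library. Other genes gained a call, ALDOA and LDHB under 5 alternatives each, IDH3B and MDH2 under 4 each, and GAPDH, PGK1 and TALDO1 under 3 each.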

How the results depend on the processing

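Of 3318 alternative values for single genes, 3138 kept direction and side of the threshold, 103 lost a call, 66 gained one and 11 turned direction. The count of genes called at 1.5-fold or more under the JeKo-1 label went from 7 to 2 with upper-quartile scaling, library size alone and limma on the score. Directions that turned were PGK1 under the JeKo-1 label (0.11 by the upper quartile, 0.10 by library size alone, 0.10 by limma), PGAM1 between the lines (0.12 by limma), TKT between the lines (0.0055 by library size alone, 0.029 with no count filter, 0.012 by limma) and CS between the lines (0.0028, 0.026 and 0.010 in the same order). FH in vehicle is also counted as turned (0.14 with the replicate block). The block sets the vehicle comparison at the libraries numbered 1 and not at the group means, so that value is no check of the FH result. The SLC2A3 to SLC2A1 ratio under the JeKo-1 label was 2.49 with 2 CPM added. The cause was not tested. Leaving out each library in turn gave 34 to 37 called genes under the JeKo-1 label, 34 to 36 in Granta-519, 23 to 28 between the lines and 41 in vehicle; at 1.5-fold or more, 6 to 9, 8 to 10, 7 to 8 and 27 to 29. The deviations of same-numbered libraries from their group means were hardly correlated (−0.02 to 0.08). With 3 libraries a group, these values cannot tell whether the numbers pair the libraries. With the replicate block 36, 36, 28 and 41 genes were called, against 36, 35, 28 and 41 without it. SLC2A3 under the JeKo-1 label ranged from 1.96 to 3.28 and PFKFB2 in Granta-519 from 0.74 to 2.82, both lowest by limma on the score, whose added constant shrinks low values. Depth limits PFKFB2, PFKFB4, SLC16A3, SLC2A3 and PDK1, the genes with under 10 CPM in some group.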
